A study of Rattus norvegicus with 16 samples.

Results

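Genes of DNA replication and mitosis were followed in dorsal hairy skin of adult rats after its sensory nerves had been cut. The genes are a list of 47, chosen for their function with earlier results of these data known, and they take in the replicative helicase, enzymes of the replication fork and of deoxynucleotide supply, cyclins and their kinases, checkpoint proteins, mitotic kinases, and proteins of the kinetochore, the spindle and the dividing cell's midzone. Of the 47 genes, 44 were measured, by 64 probesets, among 14217 genes on the array. Rrm2 was covered only by probesets assigned to several genes, and Nek2 and Tpx2 had no probeset assigned to 1 gene. For each gene the median was taken over all of its probesets. There was 1 probeset for 30 members and more than 1 for 14.

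Expression was measured on Affymetrix GeneChip rat genome expression arrays, with 1 array per rat, in 16 female Sprague-Dawley rats. Skin was taken from 6 naïve rats, which had no surgery, from 5 rats at 7 days and from 5 other rats at 14 days after transection of thoracic cutaneous nerves. The cut stumps were tied off against regrowth, the nerve of a neighbouring segment was spared, and the sample came from the rostral denervated zone. Because naïve rats were not operated on, the nerve cut, the skin incision and the anaesthesia cannot be told apart. The samples hold all layers of the skin together with the cutaneous trunci muscle, which was not itself denervated. Keratin 14 averaged 13.07 and 13.04 on the log2 scale at 7 and 14 days, and 13.13 in naïve skin. Skeletal muscle actin, Acta1, averaged 13.71 and 13.56 at 7 and 14 days, and 13.84 in naïve skin, so that epidermal and muscle RNA were present in all groups.

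Cells copy their DNA once in each division. Origins are licensed by loading of the Mcm helicase, cyclin-dependent kinases then start synthesis and later mitosis, and checkpoint and anaphase proteins hold back or release the separated chromosomes. Transcripts of most of these genes accumulate only in cycling cells, under E2F factors for the replication genes and under the DREAM and B-Myb complexes for the mitotic genes. In skin such cells are found in the basal epidermis and, in large numbers, in the matrix of the growing hair follicle, and after injury also among fibroblasts, endothelial cells and immune cells. In whole skin, fewer cells of a type and less RNA per cell cannot be told apart, so all values below are levels in the tissue and not in any cell type.

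The naïve arrays did not form 1 cluster. The mean over 15 measured genes of the hair shaft and the inner root sheath, each gene taken relative to its own mean over all 16 arrays (the hair follicle score), lay between -3.72 and -3.56 log2 units on naïve arrays 3 to 6 and reached 1.73 and 2.01 on naïve arrays 1 and 2. At 7 days this score lay between -0.91 and 1.62, and at 14 days between 1.81 and 1.91. The same mean over the 44 members (the member score) lay between -0.68 and -0.51 on naïve arrays 3 to 6 and reached 0.25 and 0.08 on the other naïve arrays. Naïve replicates 1 and 2 were the highest naïve arrays for 39 of the 44 members, and the exceptions were Prim1, Tyms, Ccnd1, Cdkn3 and Aurka. The same count was not made over all genes. The number of members called against naïve skin at an adjusted p under 0.05 is given with and without replicates 1 and 2. For the 39 members, leaving out these arrays lowers the naïve mean, so that the fold changes rise by construction. Counts at an unadjusted p, counts by role and counts of other gene lists use all naïve arrays. The cause of the division among naïve arrays was not tested.

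**Figure D1:**
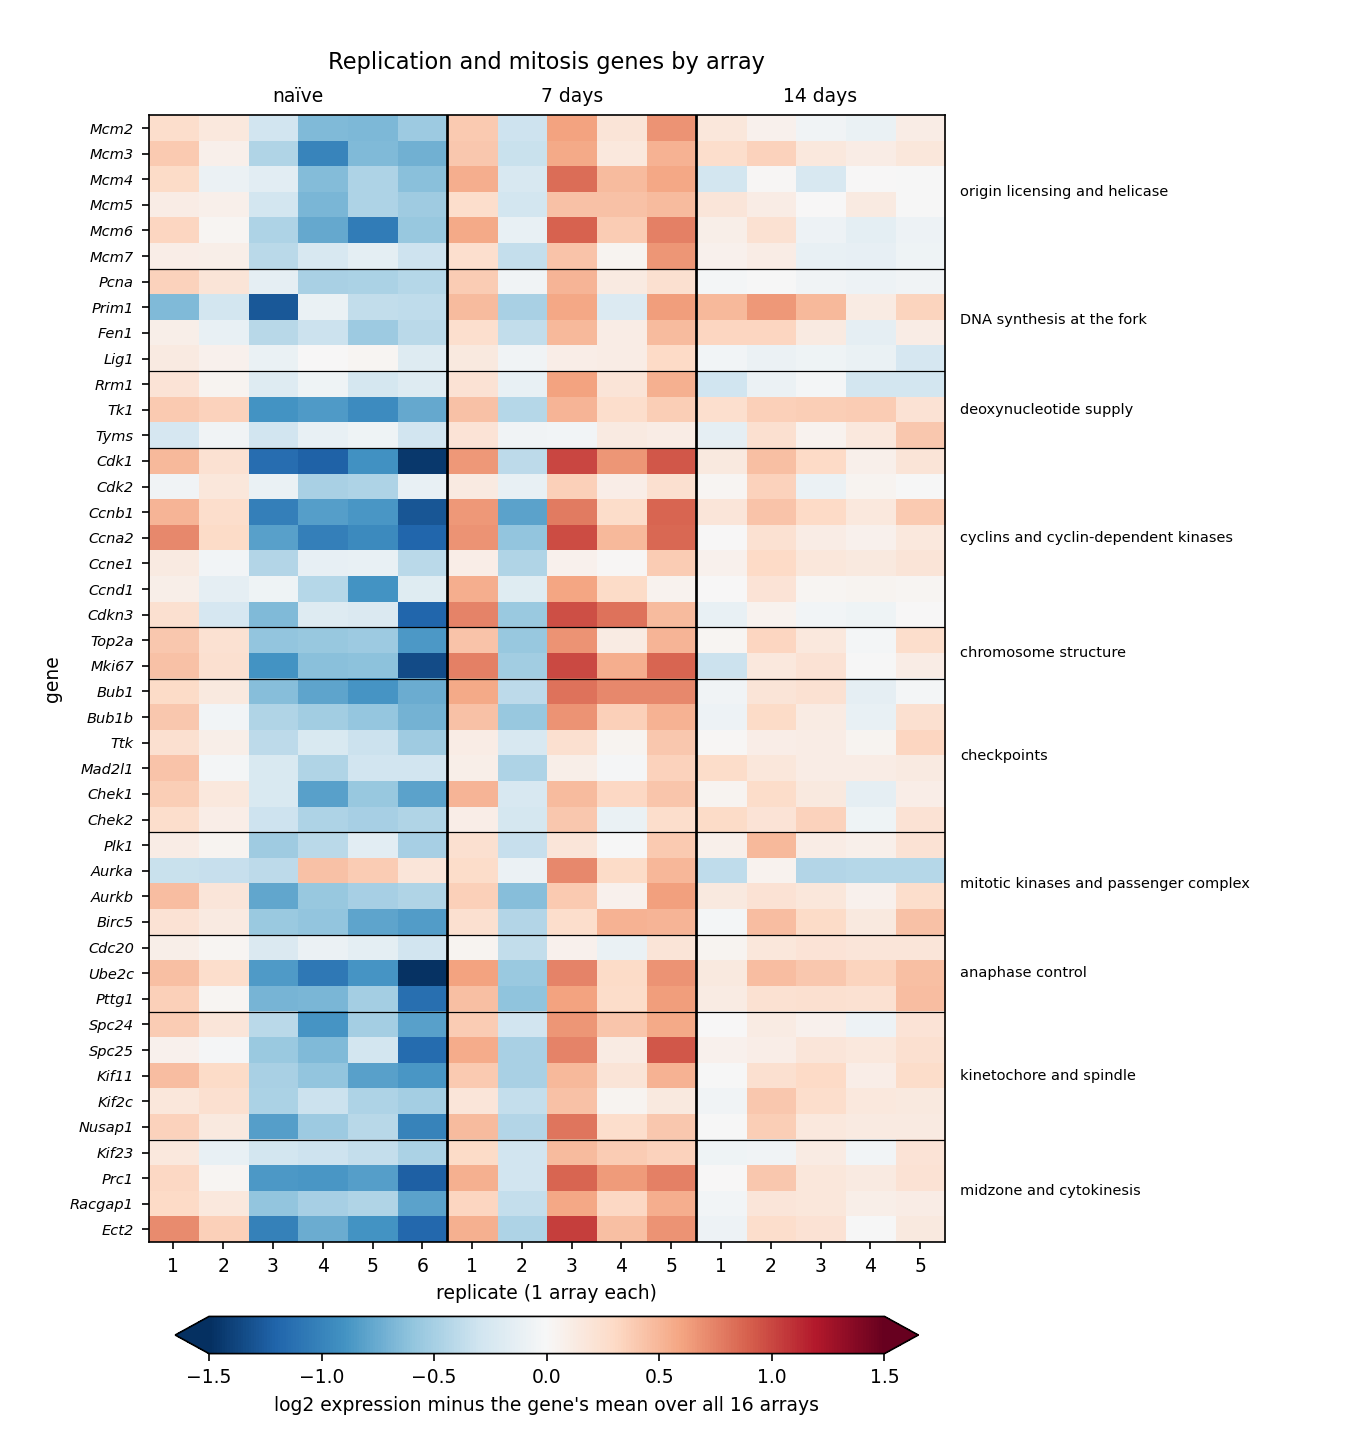
Heat map of the log2 expression of 44 replication and mitosis genes on 16 arrays, each gene relative to its mean over all arrays, with arrays in columns by group and genes in rows by role. Naïve replicates 1 and 2 lie above the other naïve arrays for 39 genes, and replicate 2 is the lowest 7 day array for all 44.

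At 7 days after denervation all 44 members had a higher mean than in naïve skin (43 with each array's median subtracted), with a median log2 fold change of 0.60 (0.07 to 1.24), against a median of -0.02 over all genes. Of these members, 9 rose past the test and none fell. They were the helicase subunits Mcm4, Mcm5 and Mcm6, the mitotic kinase Cdk1, the phosphatase Cdkn3, the checkpoint kinase Bub1, the kinetochore protein Spc25, and Kif23 and Prc1, which organise the spindle midzone. The test was limma on log2 values, with p adjusted by Benjamini-Hochberg over all genes and a threshold of 0.05. The 9 members were 20.5% of those measured, while 7.85% of all genes passed as higher and 2.66% as lower. At an unadjusted p under 0.05, 36 members were higher and none lower, against 15.9% of all genes higher and 13.6% lower.

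The 7 day count rested on few arrays. Without naïve replicates 1 and 2 together it was 39, when 19% of all genes passed as higher and 16.4% as lower. Without naïve replicates 3 to 6 it was 1 (Aurka), when 5.47% passed as higher and 3.16% as lower. The median log2 fold change was 0.86 without naïve replicates 1 and 2, and 0.06 without naïve replicates 3 to 6. Leaving out 1 naïve array at a time, in the order of replicates 1 to 6, gave 31, 29, 6, 2, 2 and 2 members. Leaving out 1 array of the 7 day group, in the order of replicates 1 to 5, gave 4, 30, 0, 1 and 4. In these 11 fits between 3.72% and 10.6% of all genes passed as higher. Replicate 2 had the lowest value of the 7 day arrays for all 44 members, and its hair follicle score was -0.44. The other 7 day arrays lay above naïve replicates 3 to 6 for 41 members, all but Prim1, Aurka and Cdc20. That comparison leaves out arrays after their member values were seen, the lowest at 7 days and mostly the highest in naïve skin. It was not counted over all genes, so the 41 cannot be set against a share of the array. No member had every 7 day array above every naïve array, against 3.31% of all genes.

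At 14 days 8 members rose, none fell, and the median log2 fold change was 0.42 (-0.31 to 0.96), against 0.02 over all genes. The members that rose were the primase subunit Prim1, the flap endonuclease Fen1, thymidine kinase Tk1, thymidylate synthase Tyms, the mitotic kinase Plk1, the passenger protein Birc5 (survivin), the ubiquitin-conjugating enzyme Ube2c and Prc1. They were 18.2% of the members, while 8.95% of all genes passed as higher and 14.6% as lower. At an unadjusted p under 0.05, 21 members were higher and none lower, against 18.8% of all genes higher and 20.8% lower. Prc1 was the member called at both times, 16 members were called at 7 or 14 days, and 28 at neither. The 2 comparisons share the naïve arrays.

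The 14 day count depended on the naïve arrays in the same way. It was 38 without naïve replicates 1 and 2, when Aurka was also called lower (log2 fold change -0.48), and in that fit 21.1% of all genes passed as higher and 21.8% as lower. It was 0 without naïve replicates 3 to 6, when the median was -0.05 and 0.0211% of all genes passed as higher and 0.0914% as lower. Leaving out naïve replicates 1 to 6 singly gave 33, 20, 2, 2, 2 and 2 members, and leaving out 14 day replicates 1 to 5 singly gave 3, 1, 2, 3 and 1, while between 3.14% and 15.1% of all genes passed as higher. Every 14 day array lay above naïve replicates 3 to 6 for 39 members, and the exceptions were Mcm4, Lig1, Rrm1, Tyms and Aurka. Naïve replicate 1 lay above every 14 day array for 23 members. Neither the 39 nor the 23 was counted over all genes, and the naïve arrays were picked after their member values were seen. Every 14 day array lay above every naïve array for Prim1 alone among the members, against 3.69% of all genes.

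Between the denervated groups, 14 days against 7 days, 3 members were lower and none was higher, with a median log2 fold change of -0.18. The 3 members were Rrm1, Aurka and Lig1. This was 6.82% of the members, while 10.1% of all genes passed as lower and 8.86% as higher. At an unadjusted p under 0.05 no member was higher and 4 were lower, against 17.8% of all genes higher and 18.7% lower. Without 7 day replicate 3 no member passed, without 7 day replicate 2 the number was 5, and without 14 day replicates 3, 4 or 5 it was 1. Over all genes 809 passed as lower without 7 day replicate 3 and 929 without 7 day replicate 2, against 1430 with all arrays. Without 14 day replicates 3, 4 and 5 singly, 858, 1025 and 741 genes passed as lower. The fold change against naïve skin was larger at 7 than at 14 days in 31 of the 44 members, a difference that passed the test in the 3 members named. Over all 14217 genes, 6997 had a higher mean at 14 than at 7 days, as did 13 of the members. With each array's median subtracted, 28 members were below 0 between the times (median -0.13), and after quantile normalization 26 were (median -0.07).

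**Figure D2:**
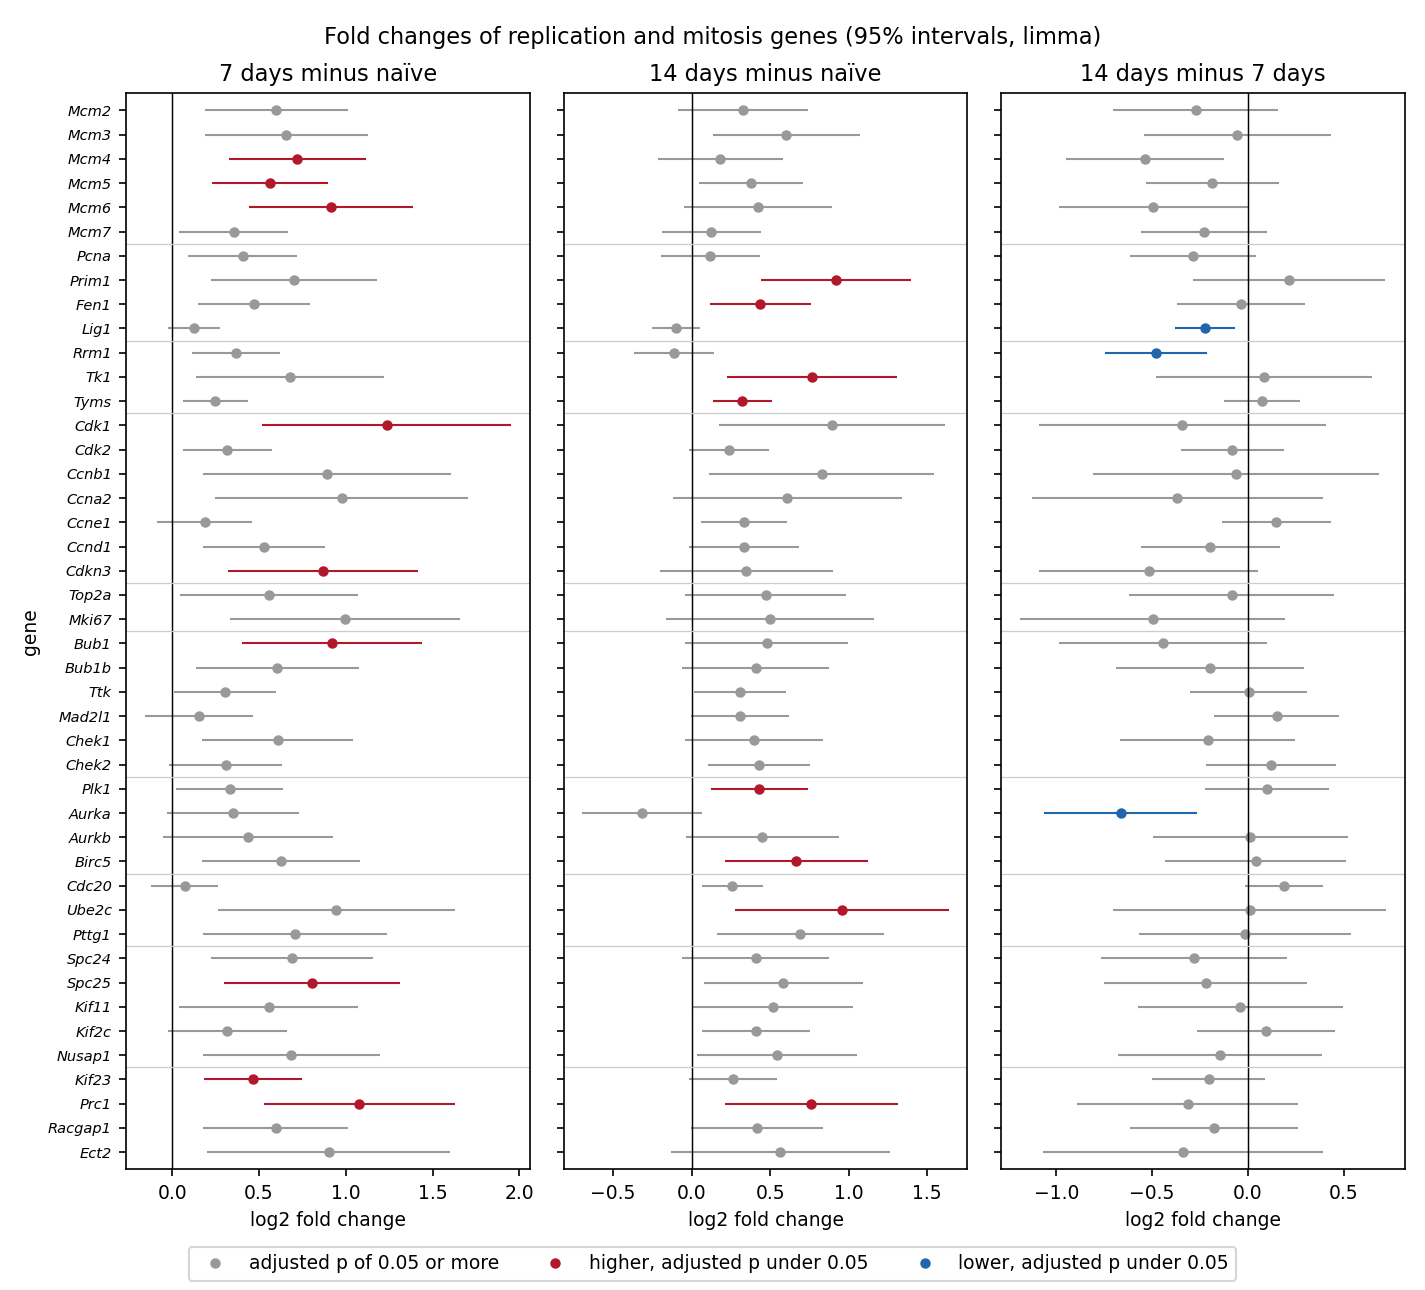
Log2 fold changes (points) with 95% intervals (lines) of 44 members in the comparisons 7 days minus naïve, 14 days minus naïve and 14 days minus 7 days, from limma over 16 arrays, with colour for calls at an adjusted p under 0.05. All 44 points lie above 0 at 7 days (43 would with each array's median subtracted) with 9 called, and 8 are called higher at 14 days and 3 lower between the times.

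The spread among arrays of a group differed between the groups. The range among arrays, taken per member, had a median of 1.11 log2 units in naïve skin, 0.95 at 7 days and 0.30 at 14 days. The range at 14 days was smaller than in naïve skin for 43 members, with Tyms as the exception. This was not counted over all genes, but the 14 day arrays were also more alike over the whole array. Over all genes, correlations between arrays of a group lay between 0.912 and 0.993 in naïve skin and between 0.993 and 0.996 at 14 days. The widest ranges were 1.94 for Cdk1 in naïve skin, 1.67 for cyclin B1 (Ccnb1) at 7 days and 0.55 for Tyms at 14 days. limma takes 1 variance per gene over the groups, so the 14 day means carry a larger error in the test than their own arrays show.

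Promoters are shown for the members that rose at 7 days, have 1 entry in the promoter table and hold a motif tied to cell cycle genes close to the start of the gene, because such motifs are known from the promoters of many genes of the list. The motifs were the cell cycle homology region (CHR, TTTGAA), the CCAAT box, bound by NF-Y, and the E2F forms TTTCGCGC, TTTGGCGC, TTTCCCGC and TTTGCCGC, each searched on both strands in the 250 bases before the start. Of the 47 listed genes, 38 had an entry in the RefSeq promoters of the rat assembly GRCr8. The CHR letters were found in 12 of the 38 (31.6%, against 16% of all 27457 promoters), CCAAT in 25 (65.8%, against 34.3%) and an E2F form in 7 (18.4%, against 1.81%). The 7 were Mcm2, Mcm5, Mcm6, Mcm7, Tyms, Cdk1 and Chek1. No motif was found in 10 of the 38, among them Bub1, Prim1, Fen1, Tk1 and Aurka. Of the members that rose at 7 days, Mcm4 had no entry, Bub1 held no motif and Cdkn3, with a CHR and CCAAT boxes, had 2 entries, so these are not printed. A match is a run of letters and not a shown binding site.

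The last 150 bases before the start are printed 5′ to 3′ on the strand of the gene, with motif letters of either strand in capitals. They lie at chr19:13488663-13488812 (plus strand) for Mcm5, chr13:42404353-42404502 (minus) for Mcm6, chr20:19265143-19265292 (plus) for Cdk1, chr3:74396719-74396868 (minus) for Spc25, chr8:71320585-71320734 (minus) for Kif23 and chr1:143659331-143659480 (plus) for Prc1.
Mcm5: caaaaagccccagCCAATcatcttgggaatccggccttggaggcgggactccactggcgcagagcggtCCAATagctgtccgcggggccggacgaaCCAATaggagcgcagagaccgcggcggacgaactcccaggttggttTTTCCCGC
Mcm6: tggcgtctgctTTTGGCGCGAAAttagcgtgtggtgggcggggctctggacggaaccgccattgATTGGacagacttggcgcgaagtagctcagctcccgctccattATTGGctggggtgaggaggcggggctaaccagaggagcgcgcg
Cdk1: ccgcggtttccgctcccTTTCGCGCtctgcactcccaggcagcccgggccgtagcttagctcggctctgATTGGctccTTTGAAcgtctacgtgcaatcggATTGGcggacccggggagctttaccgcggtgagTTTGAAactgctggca
Spc25: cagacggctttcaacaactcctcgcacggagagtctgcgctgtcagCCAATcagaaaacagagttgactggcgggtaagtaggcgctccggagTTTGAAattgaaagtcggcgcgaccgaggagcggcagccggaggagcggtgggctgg
Kif23: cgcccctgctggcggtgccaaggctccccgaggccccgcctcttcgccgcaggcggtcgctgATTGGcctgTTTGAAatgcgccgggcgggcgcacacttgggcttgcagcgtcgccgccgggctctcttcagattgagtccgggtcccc
Prc1: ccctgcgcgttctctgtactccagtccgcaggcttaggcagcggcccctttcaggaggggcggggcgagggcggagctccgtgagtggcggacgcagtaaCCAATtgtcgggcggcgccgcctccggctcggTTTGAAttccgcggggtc
In Mcm5 and Mcm6 the capitals are CCAAT boxes and E2F forms, and in Mcm6 E2F forms of the plus and minus strands overlap in the run TTTGGCGCGAAA. Spc25, Kif23 and Prc1 each show a CCAAT box followed by a CHR, and Cdk1 shows both of these motifs and an E2F form.

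The 6 Mcm genes encode the subunits of the helicase that is loaded at origins and opens DNA at the fork. All 6 had positive fold changes at 7 days, with a median of 0.63, and 3 passed, while none passed at 14 days, with a median of 0.35. Mcm6 had values of 5.92, 6.45 and 7.29 (lowest, median and highest) in naïve skin, of 7.54, 6.86, 7.86, 7.34 and 7.73 in 7 day replicates 1 to 5, and of 7.06, 7.20, 6.89, 6.82 and 6.89 in 14 day replicates 1 to 5. The 7 day arrays other than replicate 2 were above all naïve arrays, while the 14 day arrays lay inside the naïve range. At 7 days Mcm6 was 1.89-fold higher than in naïve skin (log2 fold change 0.92, SE 0.22, adjusted p = 0.0188), and this call was lost without 7 day replicate 3 among the single arrays left out. Mcm4 rose by 0.72 (adjusted p = 0.0243) and Mcm5 by 0.56 (adjusted p = 0.0332).

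Mcm3 had the smallest p of the helicase genes at 14 days. Its values were 6.27, 6.70 and 7.65 (lowest, median and highest) in naïve skin, 7.67, 6.93, 7.84, 7.42 and 7.78 at 7 days, and 7.53, 7.61, 7.43, 7.37 and 7.43 at 14 days. The 14 day arrays were close together and below the highest naïve array, and neither fold change passed (0.66 at 7 days, adjusted p = 0.0675, and 0.60 at 14 days, adjusted p = 0.0574). Mcm2 (0.60 and 0.33 at 7 and 14 days) and Mcm7 (0.36 and 0.13) did not pass either.

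Among genes of synthesis at the fork, none of 4 passed at 7 days and 2 passed at 14 days. Prim1 makes the RNA primers of new strands. Its values were 6.44, 7.34 and 7.61 (lowest, median and highest) in naïve skin, 8.18, 7.22, 8.29, 7.50 and 8.33 at 7 days, and 8.20, 8.36, 8.19, 7.83 and 8.04 at 14 days. The 14 day arrays did not overlap with naïve skin, whereas 7 day replicates 2 and 4 did. The lowest naïve array was replicate 3 and the highest replicate 4. Within naïve skin Prim1 thus did not follow the order of the hair follicle score. Its lowest 7 day arrays, replicates 2 and 4, were those with the lowest hair follicle scores of that group (-0.44 and -0.91). Prim1 was 1.89-fold higher at 14 days (log2 fold change 0.92, SE 0.23, adjusted p = 0.0136), a call that held without any single array. The call was lost without naïve replicates 3 to 6, where the fold change was 0.88. It was also lost when the model held the hair follicle score or the sarcomere score. At 7 days Prim1 was at 0.70 (adjusted p = 0.0587).

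Fen1 removes the flaps of Okazaki fragments, and Lig1 seals them. Fen1 had 6.07, 6.26 and 6.71 (lowest, median and highest) in naïve skin, 6.87, 6.25, 7.10, 6.72 and 7.09 at 7 days, and 6.94, 6.94, 6.75, 6.49 and 6.73 at 14 days. It rose by 0.44 at 14 days (SE 0.15, adjusted p = 0.0477), with 14 day replicate 4 below the highest naïve array. At 7 days replicate 2 lay close to the naïve median, and the fold change of 0.47 did not pass (adjusted p = 0.0583). Lig1 had 7.31, 7.27, 7.29, 7.25 and 7.10 at 14 days, against 7.49, 7.30, 7.45, 7.46 and 7.65 at 7 days. Its 14 day arrays overlapped with 7 day replicate 2 only, and the difference of -0.23 passed (SE 0.07, adjusted p = 0.0445). This call was lost without any single array of either denervated group other than 7 day replicate 2, with each array's median subtracted (adjusted p = 0.0974) and after quantile normalization (adjusted p = 0.169). It was also lost when the lowest 25% of genes were left out and when the moderation was changed. Pcna, the sliding clamp of the polymerases, was at 0.41 at 7 days and 0.12 at 14 days, and neither passed.

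Of 3 measured deoxynucleotide genes, none passed at 7 days, and Tk1 and Tyms passed at 14 days. Rrm1, the large subunit of ribonucleotide reductase, had 7.72, 7.86 and 8.19 (lowest, median and highest) in naïve skin, 8.20, 7.88, 8.59, 8.18 and 8.53 at 7 days, and 7.70, 7.90, 7.96, 7.71 and 7.71 at 14 days. The 14 day arrays were at the level of the lower naïve arrays and overlapped with 7 day replicate 2. Rrm1 was lower at 14 than at 7 days (log2 fold change -0.48, SE 0.12, adjusted p = 0.0188), a call lost without 7 day replicate 3. Against naïve skin it was at 0.37 at 7 days (adjusted p = 0.0619) and at -0.11 at 14 days (adjusted p = 0.502).

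Tyms makes thymidylate and Tk1 salvages thymidine. Tyms had 5.17, 5.28 and 5.41 (lowest, median and highest) in naïve skin, 5.67, 5.41, 5.42, 5.60 and 5.58 at 7 days, and 5.33, 5.71, 5.52, 5.62 and 5.87 at 14 days. It rose by 0.32 at 14 days (adjusted p = 0.0215), although replicate 1 lay inside the naïve range, and the call was lost without 14 day replicate 2 or 5. Tyms is among the 6 members in the lowest 25% of all genes by mean level, with Ccna2, Bub1b, Ttk, Mad2l1 and Chek2. Tk1 rose by 0.77 at 14 days (adjusted p = 0.0417), with a fold change of -0.06 when naïve replicates 3 to 6 were left out. At 7 days Tk1 was at 0.68 (adjusted p = 0.095), and its 3 probesets gave 0.68, 0.32 and -0.11.

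Of 7 cyclins, cyclin-dependent kinases and regulators, Cdk1 and Cdkn3 passed at 7 days and none passed at 14 days. Cdk1, the kinase that starts mitosis, had the largest fold change of all members. Its values were 6.45, 6.88 and 8.39 (lowest, median and highest) in naïve skin, 8.55, 7.51, 8.91, 8.57 and 8.83 at 7 days, and 8.04, 8.35, 8.20, 7.97 and 8.09 at 14 days. The 7 day arrays other than replicate 2 were above every naïve array, and the 14 day arrays lay between the lower naïve arrays and the highest. Cdk1 was 2.36-fold higher at 7 days (log2 fold change 1.24, SE 0.34, adjusted p = 0.0315), and at 14 days the fold change of 0.90 did not pass (adjusted p = 0.0643). The call at 7 days was lost without any 1 of naïve replicates 3 to 6 or of 7 day replicates 1, 3, 4 and 5, and the fold change was 0.21 without naïve replicates 3 to 6 together.

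Cdkn3 dephosphorylates cyclin-dependent kinases and rose by 0.87 at 7 days (adjusted p = 0.0435). Ccnb1 and Ccna2, the cyclins of mitosis and of synthesis with mitosis, were at 0.89 and 0.98 at 7 days (adjusted p = 0.0977 and 0.0771), and at 0.83 and 0.61 at 14 days. Ccnd1, cyclin D1 of early cycle entry, was at 0.53 at 7 days (adjusted p = 0.0515), and Cdk2 at 0.32. Ccne1, the cyclin E partner of Cdk2, was at 0.19 at 7 days and 0.34 at 14 days, and none of these passed.

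Mki67, which coats mitotic chromosomes and is the usual marker of proliferating cells, had 7.17, 7.89 and 8.96 (lowest, median and highest) in naïve skin, 9.28, 8.0, 9.51, 9.06 and 9.39 at 7 days, and 8.20, 8.68, 8.73, 8.51 and 8.63 at 14 days. As for Cdk1, the 7 day arrays other than replicate 2 were above the naïve arrays, and the 14 day arrays lay inside their range. Its fold change of 1.00 at 7 days missed the threshold (SE 0.31, adjusted p = 0.0535), and that of 0.50 at 14 days did so too (adjusted p = 0.244). Top2a, the topoisomerase that untangles sister chromatids, had 6.97, 7.28 and 8.25 (lowest, median and highest) in naïve skin, 8.27, 7.27, 8.52, 7.96 and 8.35 at 7 days, and 7.87, 8.17, 8.0, 7.81 and 8.11 at 14 days. The groups overlapped, and neither 0.56 at 7 days (adjusted p = 0.141) nor 0.47 at 14 days (adjusted p = 0.157) passed.

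Of 6 checkpoint genes, Bub1 passed at 7 days and none at 14 days. Bub1 is a kinase of the spindle checkpoint. It had 4.96, 5.15 and 6.14 (lowest, median and highest) in naïve skin, 6.41, 5.45, 6.65, 6.56 and 6.56 at 7 days, and 5.80, 6.04, 6.07, 5.71 and 5.81 at 14 days. The 4 high arrays at 7 days lay above all naïve arrays and replicate 2 inside their range. Bub1 rose by 0.92 at 7 days (SE 0.24, adjusted p = 0.028) and was at 0.48 at 14 days (adjusted p = 0.157). The other genes of the spindle checkpoint, Bub1b, Ttk and Mad2l1, were at 0.61, 0.30 and 0.15 at 7 days and at 0.41, 0.31 and 0.31 at 14 days, and none passed.

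Chek1 and Chek2 encode kinases of the DNA damage checkpoint. Chek1 was at 0.61 at 7 days (adjusted p = 0.0695) and at 0.40 at 14 days. Chek2 had 4.80, 4.91 and 5.55 (lowest, median and highest) in naïve skin, 5.39, 5.02, 5.69, 5.19 and 5.55 at 7 days, and 5.58, 5.50, 5.64, 5.23 and 5.51 at 14 days. Its groups overlapped, and the fold change of 0.43 at 14 days missed the threshold (adjusted p = 0.0526).

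**Figure D3:**
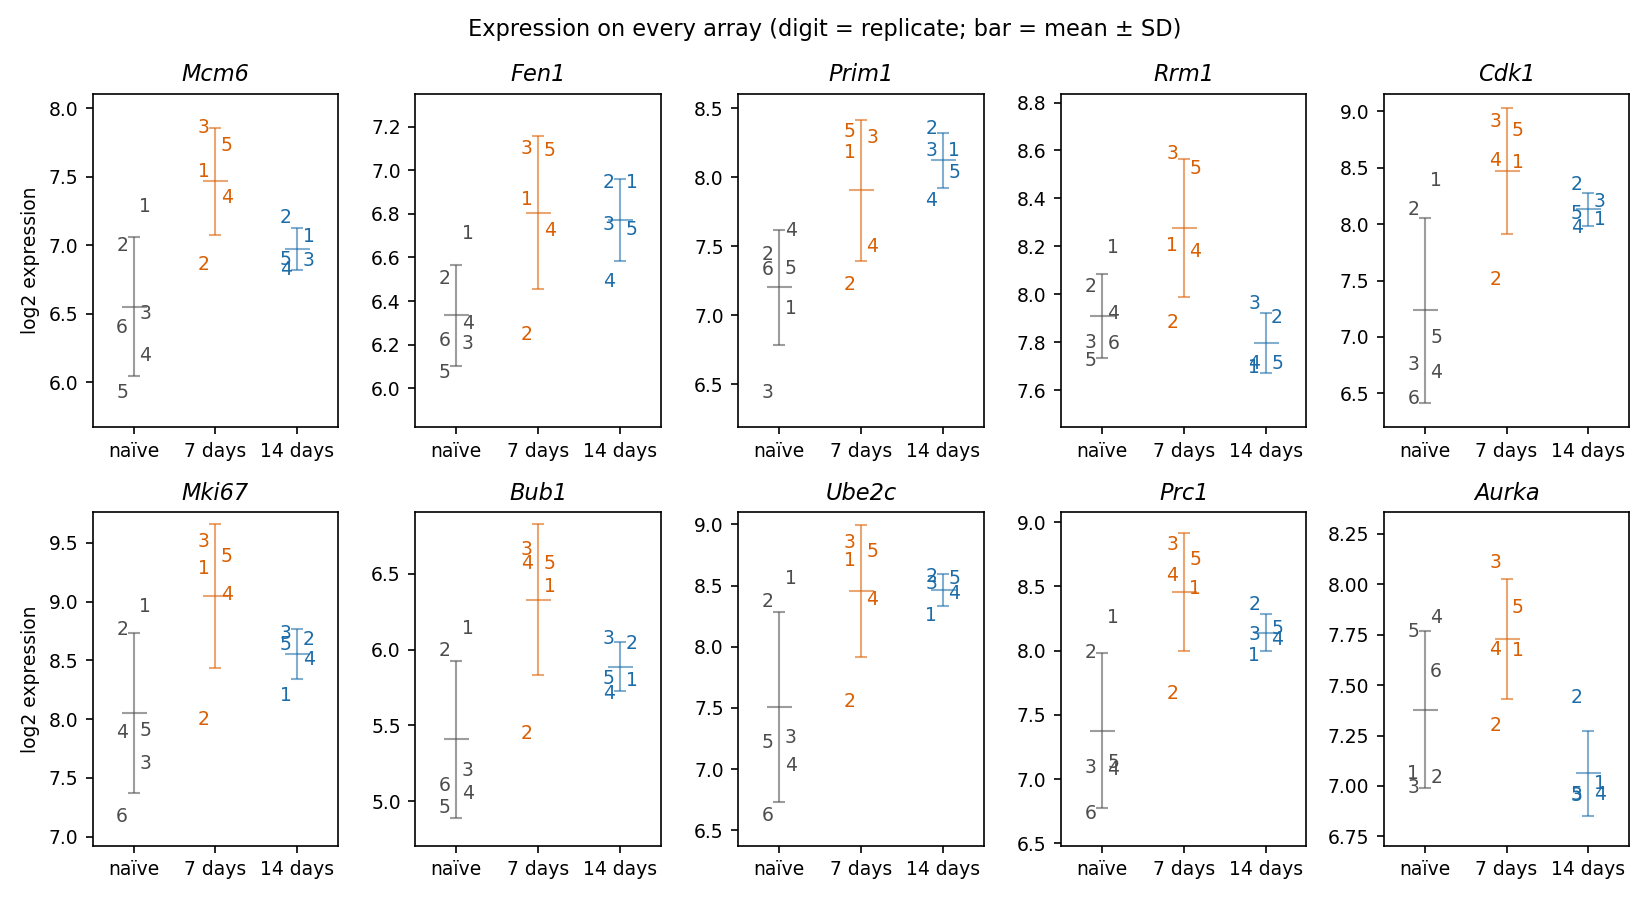
Log2 expression of 10 members on every array in naïve skin and at 7 and 14 days, where each digit is an array's replicate number and bars give the mean ± SD. Replicate 2 is the lowest 7 day array for all 10, and naïve replicates 1 and 2 are the highest naïve arrays for 8, with Prim1 and Aurka as exceptions.

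Among the mitotic kinases and the chromosomal passenger complex, none of 4 passed at 7 days, and Plk1 and Birc5 passed at 14 days. Birc5, the passenger subunit that brings Aurora B to chromosomes, had 5.15, 5.41 and 6.20 (lowest, median and highest) in naïve skin, 6.23, 5.55, 6.26, 6.51 and 6.50 at 7 days, and 5.96, 6.44, 6.27, 6.14 and 6.43 at 14 days. Its 14 day replicates 1 and 4 lay below the highest naïve array and the others above it. Birc5 rose by 0.67 at 14 days (SE 0.21, adjusted p = 0.0362) and was at 0.63 at 7 days (adjusted p = 0.0709). Plk1, the kinase of mitotic entry and spindle assembly, rose by 0.43 at 14 days (adjusted p = 0.0433) and was at 0.33 at 7 days. Aurkb was at 0.44 and 0.45 at 7 and 14 days, and neither passed.

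Aurka, the kinase of centrosomes and spindle poles, had a different pattern. It had 7.01, 7.44, 6.95, 6.96 and 6.96 in 14 day replicates 1 to 5, against 7.67, 7.30, 8.11, 7.67 and 7.88 in 7 day replicates 1 to 5, and the groups overlapped only at replicate 2 of each. In naïve skin it was at 6.99, 7.31 and 7.83 (lowest, median and highest), and here replicates 4, 5 and 6 were the high arrays and replicates 1, 2 and 3 the low ones. Aurka was lower at 14 than at 7 days (log2 fold change -0.66, SE 0.19, adjusted p = 0.0261). The call was lost without 7 day replicate 3, without 14 day replicate 3, 4 or 5 and after quantile normalization (adjusted p = 0.054). Against naïve skin, Aurka was at 0.35 at 7 days (adjusted p = 0.205) and at -0.31 at 14 days (adjusted p = 0.202).

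Anaphase genes act through the anaphase-promoting complex. Ube2c is a ubiquitin-conjugating enzyme that works with that complex. Its values were 6.62, 7.24 and 8.56 (lowest, median and highest) in naïve skin, 8.70, 7.55, 8.85, 8.39 and 8.78 at 7 days, and 8.26, 8.57, 8.51, 8.43 and 8.56 at 14 days. The 14 day arrays were at the level of naïve replicates 1 and 2 and above the other naïve arrays. Ube2c rose by 0.96 at 14 days (SE 0.32, adjusted p = 0.043), and the fold change was 0.00 without naïve replicates 3 to 6. A like mean difference at 7 days, 0.95, did not pass (adjusted p = 0.0704). Pttg1 (securin), which holds back separase, was at 0.71 and 0.69 at 7 and 14 days, and did not pass. Cdc20, an activator of the complex, was at 0.07 and 0.26, and its 5 probesets differed in sign at both times. Among the 14 members with more than 1 probeset, the sign differed between probesets for Cdc20, Tk1 and Ttk at 7 days and for Cdc20 at 14 days.

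Of 5 kinetochore and spindle genes, Spc25 passed at 7 days and none at 14 days. Spc25 is a subunit of the Ndc80 complex, which binds microtubules. It had 5.68, 6.42 and 6.90 (lowest, median and highest) in naïve skin, 7.39, 6.35, 7.58, 6.96 and 7.77 at 7 days, and 6.90, 6.94, 7.02, 7.00 and 7.08 at 14 days. The 7 day arrays other than replicate 2 lay above the naïve arrays, and the 14 day arrays lay at or just above the highest of them. Spc25 rose by 0.81 at 7 days (SE 0.24, adjusted p = 0.0436), while 0.58 at 14 days did not pass (adjusted p = 0.0844). Kif2c, a kinesin that takes microtubules apart, had 5.48, 5.60 and 6.23 (lowest, median and highest) in naïve skin, 6.17, 5.63, 6.43, 6.04 and 6.14 at 7 days, and 5.94, 6.39, 6.26, 6.15 and 6.14 at 14 days. Its groups overlapped, and 0.41 at 14 days did not pass (adjusted p = 0.0736). Spc24, the partner of Spc25, the spindle motor Kif11 and the microtubule binder Nusap1 were at 0.69, 0.56 and 0.69 at 7 days, and none passed.

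Prc1 bundles the microtubules of the central spindle, where Kif23 and Racgap1 recruit Ect2 to place the cleavage furrow. Prc1 had 6.73, 7.11 and 8.26 (lowest, median and highest) in naïve skin, 8.48, 7.67, 8.83, 8.59 and 8.71 at 7 days, and 7.96, 8.36, 8.12, 8.08 and 8.17 at 14 days. The 7 day arrays other than replicate 2 were above every naïve array, and at 14 days replicate 2 alone was. It rose at both times, by 1.08 at 7 days (2.11-fold, SE 0.26, adjusted p = 0.0178) and by 0.76 at 14 days (1.70-fold, SE 0.26, adjusted p = 0.0445). The 7 day call was lost without 7 day replicate 3 or 4, and the 14 day call without any 1 of naïve replicates 3 to 6 or of the 14 day arrays. Kif23 rose by 0.47 at 7 days (adjusted p = 0.0359), while Racgap1 at 0.60 and Ect2 at 0.90 did not pass (adjusted p = 0.0655 and 0.0874).

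The member score was set beside scores of marker genes, array by array. At 14 days it lay between 0.03 and 0.23, and the hair follicle score between 1.81 and 1.91, close to naïve replicates 1 and 2. At 7 days the member score was 0.38, -0.36, 0.56, 0.25 and 0.51 in replicates 1 to 5, and the hair follicle score was 1.62, -0.44, 0.51, -0.91 and 0.88. Replicates 3, 4 and 5 at 7 days thus had member scores at or above that of naïve replicate 1 with lower hair follicle scores. Of the 15 hair follicle genes, none passed at 7 days (5 higher at an unadjusted p under 0.05) and 13 rose at 14 days. With that score added to the model as a covariate, 3 members were higher at 7 days (Cdk1 at 0.65, Mcm6 at 0.56 and Prc1 at 0.65) and none at 14 days, where the median was -0.06. With it, 16 members were lower at 14 than at 7 days. Over all genes that fit gave 1274 higher at 7 days and 77 at 14 days, against 1116 and 1272 without the score. Between the times it gave 1653 genes lower, against 1430.

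Other cell types moved with the groups as well. For macrophages, 14 of 16 marker genes passed as higher at 7 days and 2 did so at 14 days, and their score lay between 0.29 and 1.04 at 7 days, between -0.06 and 0.30 at 14 days, and between -1.87 and 0.55 in naïve skin. Of 9 fibroblast genes 5 rose at 7 days, as did 5 of 7 endothelial genes. Of 7 genes of the basal keratinocytes, which divide in the resting epidermis, 3 fell at 7 days and 4 at 14 days. No gene of the T cell list (6 genes) passed at either time, and of 4 neutrophil genes 1 rose at 14 days. Of 17 sarcomere genes, 13 fell at 14 days and none at 7 days, and their score lay between -0.74 and 0.60 at 7 days, between -0.89 and -0.34 at 14 days, and between -0.79 and 1.13 in naïve skin. With the sarcomere score as a covariate 3 members were higher at 7 days and none at 14 days. Over all genes 1047 and 82 passed as higher in that fit. With the macrophage score none of the members was higher at 7 days and 2 were at 14 days. In the fit with the macrophage score the members' median log2 fold change was 0.53 at 7 days, with all 44 above 0, and 0.42 at 14 days, and over all genes 1 passed as higher and 1 as lower at 7 days. The 3′ minus middle difference of the beta-actin control probesets, a sign of RNA degradation, lay between 0.20 and 0.29 at 7 days and between 0.05 and 0.28 at 14 days, against 0.18 and 0.23 for the first pair of naïve replicates and 0.52 to 1.20 for naïve replicates 3 to 6. The beta-actin 3′ minus 5′ difference lay between 0.58 and 0.69 at 7 days and between 0.47 and 0.74 at 14 days, against 0.61 and 0.69 for the first pair of naïve replicates and 0.14 to 0.65 for naïve replicates 3 to 6. The 3′ minus 5′ difference of Gapdh lay between 0.23 and 0.42 at 7 days and between 0.32 and 0.37 at 14 days, against 0.29 to 0.34 for naïve replicates 3 to 6, and its 3′ minus middle difference overlapped between these groups too. The part of these differences in the members' values was not tested beyond the covariates.

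**Figure D4:**
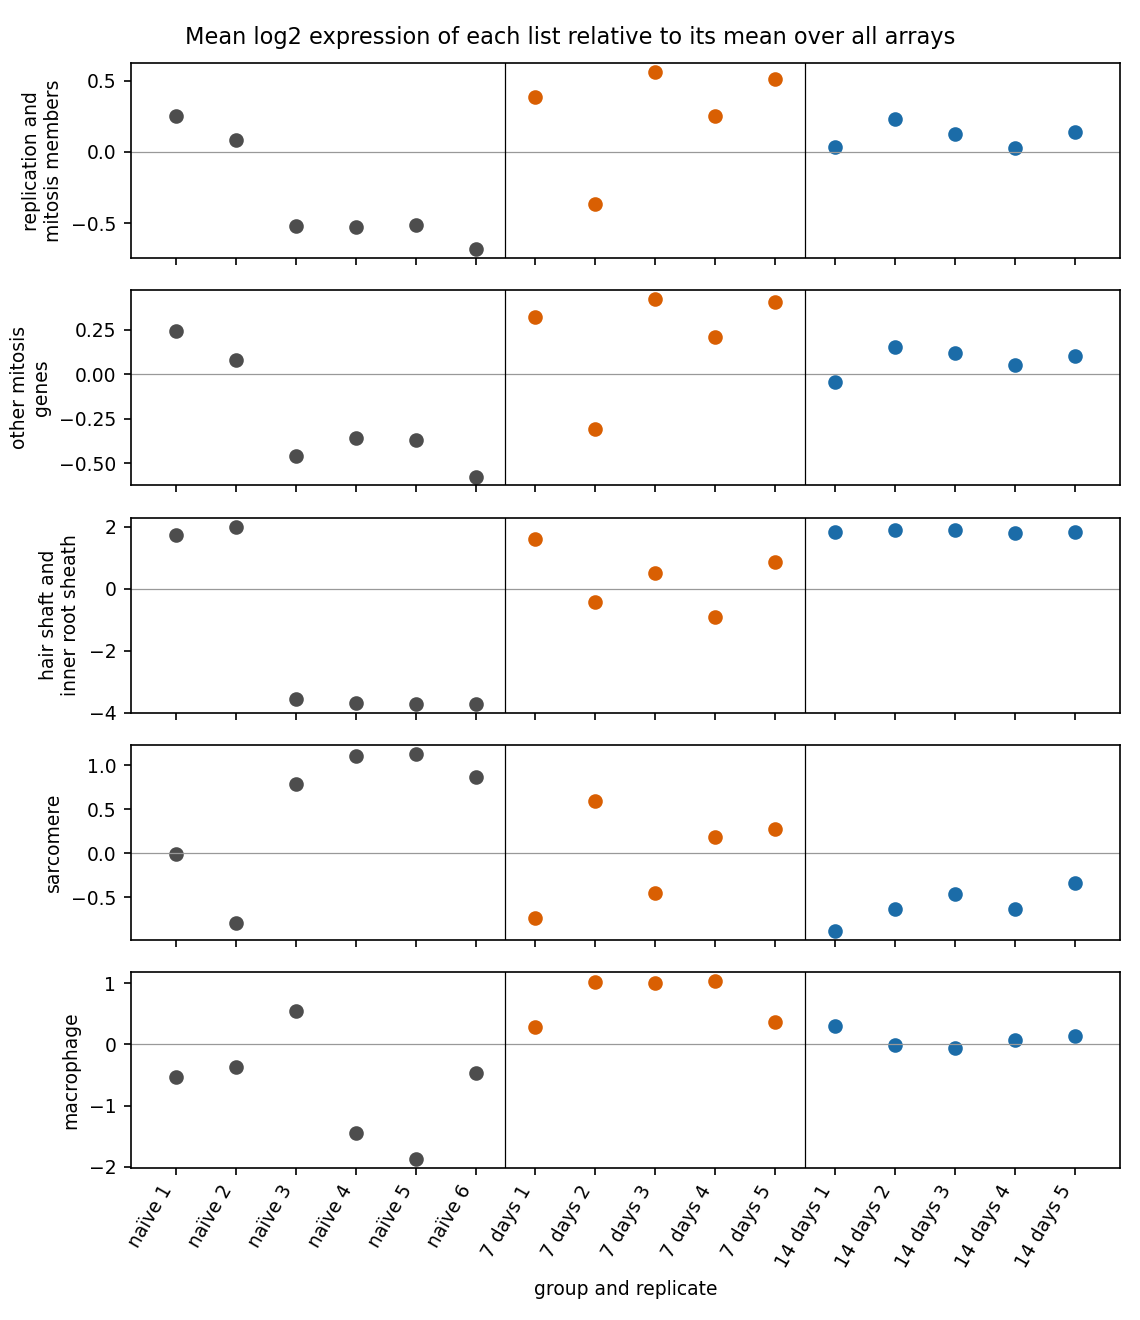
Mean log2 expression of 5 gene lists on each of 16 arrays, relative to each list's mean over all arrays, in naïve skin and at 7 and 14 days. Naïve replicates 3 to 6 and 7 day replicate 2 have the lowest member scores, naïve replicates 3 to 6 the lowest hair scores, and 7 day replicates 2, 3 and 4 the highest macrophage scores.

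Further genes of the same pathways, outside the list, were counted in the same fits. Of 36 other replication genes, 7 rose (19.4%) and none fell at 7 days, against 7.85% of all genes higher and 2.66% lower. At 14 days 4 rose and 3 fell (11.1% and 8.33%, against 8.95% and 14.6% of all genes). Rfc2, a subunit of the clamp loader, rose by 0.43 at 7 days (adjusted p = 0.00997), and Pole2, of polymerase epsilon, by 0.51 (adjusted p = 0.0225). At 14 days Prim2, the partner of Prim1 in primase, rose by 0.46 (adjusted p = 0.00629), and Rpa1, which coats single-stranded DNA, fell by 0.42 (adjusted p = 0.00607). Of 43 other mitosis genes, 13 rose at 7 days (30.2%), and 8 rose and 1 fell at 14 days (18.6% and 2.33%). The kinesins Kif22 and Kif15 rose at 7 days by 1.11 (adjusted p = 0.0112) and 0.89 (adjusted p = 0.0233). At 14 days Hmmr, a spindle protein, rose by 0.42 (adjusted p = 0.0181), and the microtubule polymerase Ckap5 fell by 0.45 (adjusted p = 0.0011).

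Of 23 genes of cell cycle transcription and entry, 1 rose at 7 days (4.35%, against 7.85% of all genes). This was Lin54, the DREAM subunit that binds the CHR (0.22, adjusted p = 0.0315). At 14 days 4 rose and 3 fell (17.4% and 13.0%, against 8.95% and 14.6% of all genes). Cdk4, the kinase partner of cyclin D, was at 0.52 at 7 days (adjusted p = 0.0597). The pocket proteins Rb1 and Rbl2, which hold back E2F, fell at 14 days by 0.31 (adjusted p = 0.00738) and 0.52 (adjusted p = 0.00872). Of 7 inhibitors of cyclin-dependent kinases, Cdkn2d and Cdkn1c rose at 7 days, by 0.29 (adjusted p = 0.0131) and 0.96 (adjusted p = 0.0373). At 14 days Cdkn2b rose by 0.91 (adjusted p = 0.00715) and Cdkn1b fell by 0.36 (adjusted p = 0.0221).

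**Figure D5:**
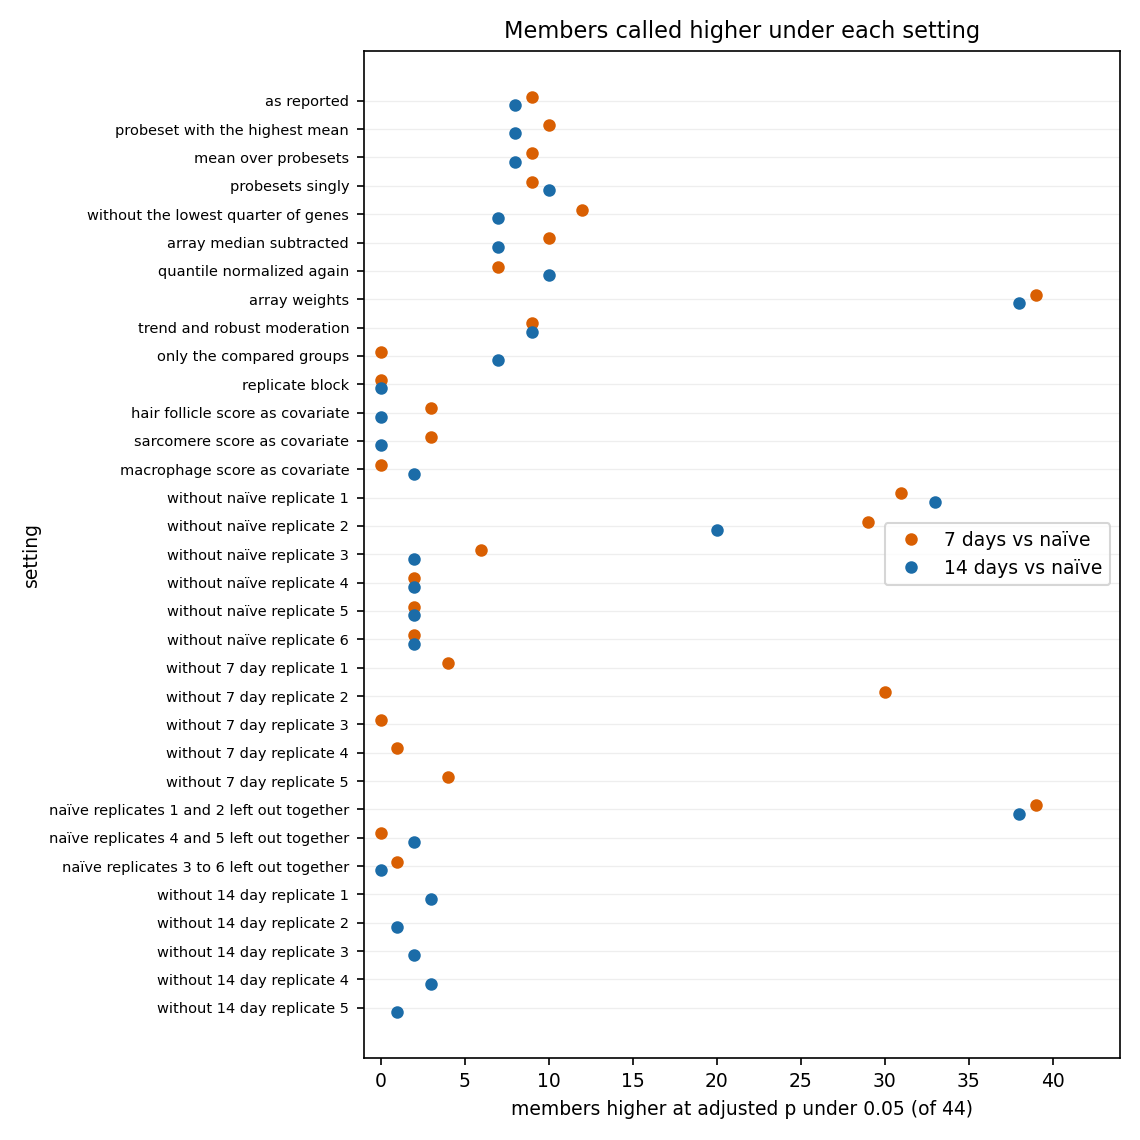
Number of members, of 44, called higher at an adjusted p under 0.05 at 7 and 14 days against naïve skin, as reported and under each other setting. The counts are 9 and 8 as reported, and reach 39 and 38 without naïve replicates 1 and 2.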

How the data were processed

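RNA from skin of 16 rats was hybridised to Affymetrix GeneChip rat arrays. The values deposited by the authors are on the log2 scale, after robust multi-array averaging (RMA), and the submitters' notes name R 3.0.1. Scan dates and raw intensities were not used here. Of 31099 probesets, 57 control probesets, 9780 with no gene and 436 with several genes were left out. From the other 20826 14217 genes were formed, each with the median of its probesets. Symbols were updated through the RefSeq annotation of GRCr8.

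Groups were compared with limma 3.58.1 in R 4.3.3, in 1 model with a mean for each group over all arrays, with empirical Bayes moderation, and p-values were adjusted by Benjamini-Hochberg over all genes. The fit was tested on simulated data. The members, the other lists and the alternatives were chosen with earlier results of these data known. Every member is named. Values by array of the denervated groups are given, in each role, for the members with the smallest p at 7 and at 14 days. They are also given for Lig1 and Aurka, chosen after their values were seen. For naïve skin the lowest, median and highest values are given, except for Lig1. Of each other pathway list, the 2 genes with the smallest p at each time are named. Alternatives used another collapse, left out dim genes or arrays, rescaled or weighted the arrays, changed the moderation, fitted fewer groups, and added a block or a covariate. The number of arrays limits the precision. Figures were drawn with matplotlib 3.10.9 in Python 3.11.15.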

Additional observations from a re-analysis of the deposited data

Results flagged for a closer look

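Within groups, 15 of 135 sets of values (the 44 members and the member score, in each of 3 groups) held an array that stood apart from the others of its group by Dixon's criterion, where chance gives about 5% in a single set. The sets are not independent, since all are read on the same arrays, so their share cannot be set against 5% as a test. Of the 15, 11 were 7 day replicate 2, the lowest 7 day array for all 44 members, 4 were 14 day arrays and none was in naïve skin. At 7 days replicate 2 was at 7.51 for Cdk1 (the other arrays 8.55 to 8.91), at 5.45 for Bub1 (6.41 to 6.65), at 4.91 for Bub1b (5.83 to 6.15), at 6.75 for Chek1 (7.29 to 7.49) and at 7.21 for Mcm5 (7.75 to 7.96). It was at 5.96 for Tk1 (6.65 to 6.90), at 5.55 for Birc5 (6.23 to 6.51), at 7.54 for Pttg1 (8.41 to 8.76) and at 6.88 for Spc24 (7.56 to 7.83). For Kif23 it was at 5.89 (6.46 to 6.65) and for Racgap1 at 5.89 (6.56 to 6.83).

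At 14 days Lig1 was low in replicate 5, at 7.10 (7.25 to 7.31), and Cdc20 was low in replicate 1, at 5.74 (5.87 to 5.90). In replicate 2 Ccnd1 was high, at 9.10 (8.92 to 8.95), and so was Aurka, at 7.44 (6.95 to 7.01).

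The difference of the effects at the 2 times was tested in limma as 14 days against 7 days and passed for Rrm1 (log2 fold change -0.48), Aurka (-0.66) and Lig1 (-0.23).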

How the results depend on the processing

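The members called higher numbered 9 at 7 days and 8 at 14 days against naïve skin, and 3 were called lower at 14 than at 7 days. Under other collapses of probesets, without the lowest 25% of genes, and under other moderation or scaling, the counts were 7 to 12, 7 to 10 and 1 to 3, the lowest of the last with quantile normalization, where 1 member was lower. With probesets tested singly, 1 member, Tk1, was higher at 14 than at 7 days. Array weights gave 39, 38 and 7, with 1 member lower at 14 days. Over all genes they gave 2131 higher at 7 days, 3572 higher at 14 days and 2589 lower between the times. Fits that held no more than the 2 groups compared gave 0 at 7 days, 7 at 14 days and 6 lower between the times, with the fold changes as reported. Over all genes they gave 264 higher at 7 days, 968 higher at 14 days and 2523 lower between the times, against 1116, 1272 and 1430 as reported. With the hair follicle score in the model the member counts were 3, 0 and 16, and with the sarcomere score 3, 0 and 14. Over all genes these fits gave 77 and 82 higher at 14 days, against 1272 as reported. They gave 1653 and 1485 genes lower between the times, against 1430. With the macrophage score the member counts were 0 at 7 days and 2 at 14 days, where the medians were 0.53 and 0.42 and 1 gene of the array was higher at 7 days. The 14 day median log2 fold change was -0.056 with the hair follicle score and -0.041 with the sarcomere score. Without naïve replicates 1 and 2 the counts were 39 and 38, with 1 lower at 14 days, without replicates 4 and 5 they were 0 and 2, and without replicates 3 to 6 they were 1 and 0, with medians of 0.062 and -0.052. Over all genes these fits gave, in the same order, 2706 and 3006, 345 and 251, and 777 and 3 higher at 7 and 14 days. Leaving out 1 array gave 0 to 31 members at 7 days, 1 to 33 at 14 days and 0 to 5 lower between the times. At 14 days the sign of 28 members turned with the hair follicle score, of 23 with the sarcomere score and of 27 without naïve replicates 3 to 6. Of the called members, Tk1 turned with the hair follicle score (-0.048) and without naïve replicates 3 to 6 (-0.056), and Ube2c with the hair follicle score (-0.021). The cause of these changes was not tested.

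With the replicate block the counts were 0, 0 and 1. Over all genes that fit gave 746 higher at 7 days, 367 higher at 14 days and 1210 lower between the times. Samples were not treated as paired by replicate number, since each array came from a different rat. The correlation of the deviations of same-numbered arrays lay between -0.55 and 0.58, and arrays of unlike number were not compared. Over all genes, 1116 were higher and 378 lower at 7 days, against 951 and 1492 with each array's median subtracted and 951 and 729 after quantile normalization. Between the times 1260 were higher and 1430 lower at 14 days, against 2079 and 1005 with each array's median subtracted.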
